A study of Drosophila melanogaster with 21 samples.

Results

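Head transcriptomes of the *Elav-GAL4* control flies of the KK background (Control KK) were compared with those of the GD background (Control GD). The comparison used 6 of the 21 libraries of the study, 3 biological replicates for each control, chosen by the sample titles, and covered every gene that passed a low-count filter, 10558 of 17559. The study knocked down fly homologs of genes of the human 3q29 deletion with RNAi lines from 2 collections, named GD and KK, and each collection has a control line of its own. Control GD flies were *w1118,Elav-GAL4/w1118* and Control KK flies were *w1118,Elav-GAL4/y1 w1118*, from the KK control line 60100. Neither carried an RNAi insertion. Both carried the pan-neuronal *Elav-GAL4* driver, and RNA came from pooled heads of female offspring reared at 25°C. The age of the flies was not given in the sources used here. The other 15 libraries came from flies with *Elav-GAL4* knockdown of *dlg1* or *Fsn* (GD lines), *Cbp20* (a KK line), *Cbp20/dlg1* or *Cbp20/Fsn*. They entered the same model and are described below where they show whether a difference between the controls was seen again between lines of the collections.

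Inbred laboratory strains of *Drosophila* carry different alleles of many genes, and a gene can be transcribed in the head of one strain and silent in that of another. Part of the RNA of a whole fly head comes from tissues other than the brain. The head fat body makes yolk proteins, lipid carriers and, when the Imd and Toll immune pathways are active, antimicrobial peptides, and the support cells of the antenna secrete odorant-binding proteins. Detoxification enzymes such as cytochrome P450s are known to vary widely among strains.

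Between 21529989 and 26844954 reads were counted on genes in the 6 control libraries, so that 3 counts corresponded to 0.112 to 0.139 CPM, read counts scaled to a common library size. Pearson correlations of log2 CPM across genes were 0.995 to 0.996 within Control GD, 0.997 to 0.998 within Control KK and 0.985 to 0.987 between the controls. Of all alignments in the counting output, those to more than 1 place made up 19.9 to 26.1% in Control GD. They made up 14.1 to 16.1% in Control KK, without overlap. The ribosomal RNA gene *pre-rRNA:CR45845* and the pseudogenes *28SrRNA-Psi:CR45859* and *28SrRNA-Psi:CR45860*, named after their values were seen, were called lower in Control KK (-1.66, -2.01 and -2.88), and the part of this difference in the results was not tested. The genes that could check the labels separate controls from knockdowns, but not Control KK from Control GD. The white gene *w*, whose marker copy is carried by RNAi insertions, had 37.2 to 39.3 CPM in Control KK and 39 to 39.5 CPM in Control GD, against group means of 206.4 to 844.1 CPM in the knockdowns. *Cbp20*, *dlg1* and *Fsn* had log2 differences of 0.13, 0.02 and -0.07 between the controls, and the pigment gene *y*, for which Control KK carries the *y1* allele, had one of 0.61, which did not pass the test. The photoreceptor rhodopsin *ninaE* had 34622 to 38494 CPM in the 6 libraries, while the trypsin genes *alphaTry* and *betaTry* of the gut did not exceed 0.0748 CPM. Of the other gut genes checked, *Jon65Aiii* had at most 0.187 CPM, but *Mal-A1* had 5.1 to 8.46 CPM.

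At a fold-change threshold of 2, a gene was called when its log2 fold change exceeded 1 in size with a false discovery rate below 0.05 in edgeR's quasi-likelihood test. By this rule 355 genes (3.36% of those tested) differed between the controls, 173 higher in Control KK (1.64%) and 182 lower (1.72%). Without the fold-change threshold, 2207 genes (20.9%) passed, 1244 higher (11.8%) and 963 lower (9.12%). The median size of the log2 fold change was 1.47 for called genes that were higher and 1.62 for those that were lower, against 0.148 over all genes tested. The log2 fold change exceeded 2 in size for 120 genes, 3 for 66 and 5 for 32. Called genes were more frequent at low levels. Of genes with a mean under 1 CPM in the control libraries 10.4% were called, against 6.04% from 1 to 10 CPM, 1.62% from 10 to 100 CPM and 0.755% from 100 CPM. The 3 Control KK libraries lay entirely above or below the 3 Control GD libraries for 344 of the 355 genes (96.9%), and for 48.8% of all genes tested.

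**Figure D1:**
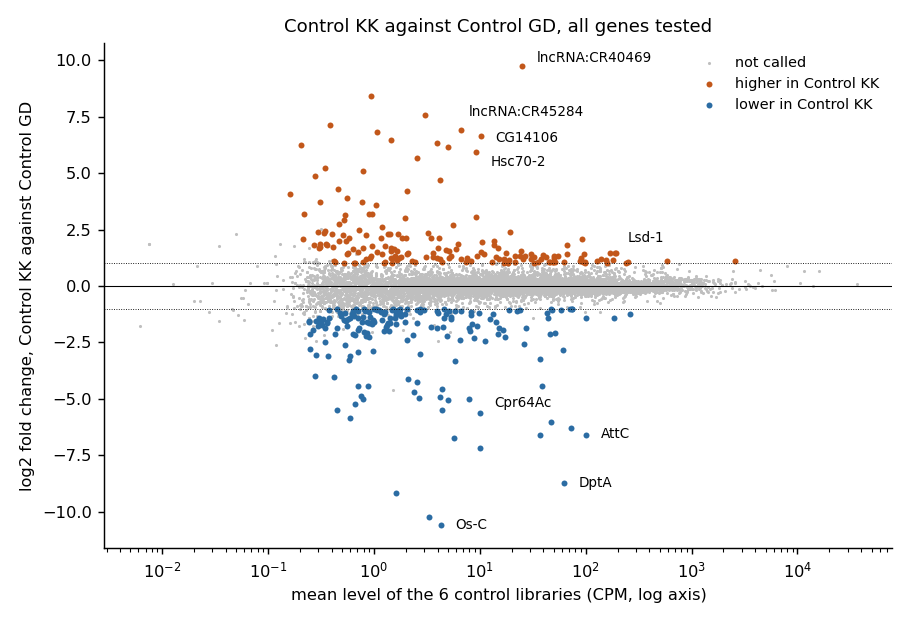
Log2 fold change of Control KK against Control GD (vertical axis) for each of the 10558 genes tested, by its mean level in the 6 control libraries in CPM (horizontal log axis). The 173 genes called higher and 182 called lower in Control KK are coloured, dotted lines mark log2 fold changes of 1 and -1, and 9 genes named in the text are labelled.

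The control libraries had each been sequenced in 3 batches. These are repeat runs of the same libraries, so a comparison of them covers sequencing error and not the spread between replicates. The direction was the same in each batch alone for every called gene that could be tested there, including 233 genes in the second batch and 325 in the third. In the first, the second and the third batch alone, 196, 193 and 266 of the genes were also called.

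Control KK heads held little RNA of 12 of 13 genes for antimicrobial peptides, the secreted effectors that kill bacteria and fungi. The drosomycin gene *Drs* could not be matched by name and was not analysed here. The 13 genes all passed the filter, and 12 were called lower in Control KK (92.3%, where 1.72% of all genes were called lower), with a median log2 fold change of -5.48. The summed level of the 13 genes was 422.6, 679.8 and 1155.9 CPM for Control GD against 12.5, 13.7 and 12 CPM for Control KK. *DptA* (FBgn0004240, 2R, bases 18865765 to 18866260 of BDGP6.54), which encodes a diptericin, had 47.8, 87.7 and 241.4 CPM in Control GD and 0.337, 0.137 and 0.389 CPM in Control KK. Every Control GD library was above every Control KK library, and Control GD replicate 3 was the highest. Its log2 fold change was -8.72 ± 1.44 (SE; edgeR quasi-likelihood test, Benjamini-Hochberg adjusted p = 0.000199). In whole heads, fewer cells of a type and less RNA per cell cannot be told apart.

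The other peptide families moved the same way. *AttC*, an attacin (FBgn0041579, 2R, bases 13393705 to 13394667), had 115.2, 164.8 and 319.0 CPM in Control GD and 2.65, 1.46 and 2.14 CPM in Control KK (-6.58 ± 1.04). *Mtk*, which encodes the antifungal peptide metchnikowin, had 70.4, 98 and 112.1 CPM in Control GD and 0.963, 1.37 and 1.91 CPM in Control KK (-6.02 ± 0.87). *Dro*, which encodes drosocin, fell from 97.3, 165.2 and 164.5 CPM to 1.97, 2.01 and 1.52 CPM (-6.29 ± 1.24). No control library of one background reached the range of the other for these genes. The log2 fold changes of *DptB* and *AttB* were -6.58 and -4.44. The 4 cecropin genes *CecA1*, *CecA2*, *CecB* and *CecC* lie within bases 30210874 to 30216938 of 3R and were all called lower, with log2 fold changes from -7.19 for *CecA1* to -4.42 for *CecB*. *AttA* was the member not called (-2.42, Benjamini-Hochberg adjusted p = 0.0703 in edgeR), although its groups did not overlap either. Control GD replicate 3 raised the size of these differences. Without it 10 of the 13 genes were called and the median was -4.44. *CecA2* (-5.48) was not called without it (-3.66). The call of the defensin gene *Def* (-1.24) was lost without replicate 2 or 3 of Control GD or replicate 2 or 3 of Control KK, with values from -1.27 to -1.05.

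**Figure D2:**
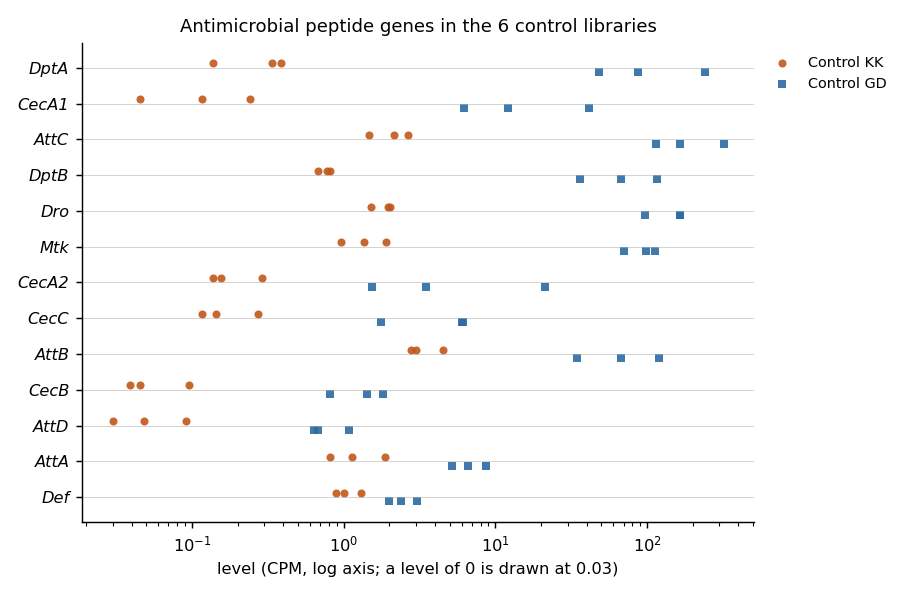
Level of the 13 antimicrobial peptide genes in each control library (CPM, log axis), ordered by log2 fold change. Circles are the 3 Control KK libraries and squares the 3 Control GD libraries, and a level of 0 is drawn at 0.03. For each gene the squares lie to the right of the circles.

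*IBIN*, a short secreted peptide induced by infection, was also lower in Control KK, at 0.0963, 0.0912 and 0.117 CPM against 5.28, 6.64 and 22.1 CPM in Control GD (-6.72 ± 1.53). Of the 35 tested genes for recognition and signalling in the Toll and Imd pathways, 4 were called, all lower in Control KK (11.4%, background 1.72%). They encode peptidoglycan recognition proteins (*PGRP-SB1*, *PGRP-SD* and *PGRP-SC2*) and a relative of the glucan-binding proteins (*GNBP-like3*). *PGRP-SB1*, a secreted amidase, had 48, 75.1 and 104.2 CPM in Control GD and 16.4, 16 and 19.2 CPM in Control KK (-2.14 ± 0.37). *PGRP-SD* had 21.8, 25 and 25.4 CPM in Control GD and 5.34, 6.52 and 7.82 CPM in Control KK (-1.87 ± 0.20). For both genes the groups were apart. Without the fold-change threshold 5 passed as higher (background 11.8%) and 10 as lower (background 9.12%), and the median over the 35 was -0.03. *GNBP-like3* (36.8, 58.7 and 32.4 CPM in Control GD, 10.8, 11.8 and 12.2 CPM in Control KK; -1.88) lost its call without Control GD replicate 2 (-1.57). The NF-kappaB factor *Rel*, which acts at the end of the Imd pathway, had a log2 fold change of -0.36, past the test but short of the fold-change threshold.

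A list of Bomanins, drosomycin-like genes and other peptide genes split in direction. Of 16 tested, 3 were called higher in Control KK (background 1.64%) and 3 lower (background 1.72%). *Drsl4*, a drosomycin-like gene (FBgn0052282, 3L, bases 3315620 to 3315942), had 22.4, 20 and 22.5 CPM in Control KK and 5.19, 6.077 and 4.9 CPM in Control GD (2.0 ± 0.16), and its neighbour *Drsl5* rose by 1.33. Among the Bomanins, *BomS4* was higher (34.5, 37.3 and 44.2 CPM in Control KK, 18.1, 14.4 and 13.4 CPM in Control GD; log2 fold change 1.34), and *BomBc3*, *BomS5* and *BomS1* were lower (-1.42, -1.13 and -1.0). Without Control GD replicate 2 only *BomBc3* of the lower genes was called, with *BomS5* at -0.93 and *BomS1* at -0.83. *BomS1* also lost its call without any other control library except Control GD replicate 3. The stress-induced Turandot genes *TotM*, *TotA* and *TotC* were called lower, with log2 fold changes of -2.57, -1.43 and -1.41. These calls rested on Control GD replicate 3, in which *TotM* had 104.7 CPM against 9.56 and 18.9 CPM in the other Control GD libraries. Without that library none of the 3 was called, and the log2 fold changes were -0.93, -0.81 and -0.66. *TotC* was also not called without Control KK replicate 1 (-1.22). *NimC4*, a receptor for engulfing apoptotic cells, was the 1 of 16 tested hemocyte genes to be called (6.25%, background 3.36%). It had 7.85, 6.23 and 7.07 CPM in Control GD and 2.31, 1.73 and 1.91 CPM in Control KK (-1.83). Control GD replicate 3 also had more RNA of the dosage-compensation gene *lncRNA:roX1*, which is abundant in males, at 48 CPM against 9.42 and 14.9 CPM in the other Control GD libraries and 5.2 to 6.07 CPM in Control KK. The value of -2.11 was not called without that library (-1.12). Its part in the results that rest on this library was not tested.

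RNA of 11 of 18 tested genes of an antennal list was lower in Control KK. Of 24 genes listed, 18 passed the filter and 11 were called, each of them lower (61.1%, background 1.72%), with a median of -1.61. *Antdh*, an antennal dehydrogenase gene, was not among these 24 because its listed symbol did not match that of the files, and it went the other way, at 46.6, 44.3 and 45.7 CPM in Control KK and 23.1, 17.9 and 16.1 CPM in Control GD (1.26 ± 0.14). The summed level of the 18 genes and the 6 below the filter, without *Antdh*, was 171.6, 91.4 and 86.1 CPM in Control GD and 40.9, 45.6 and 41.7 CPM in Control KK. The groups were apart, and Control GD replicate 1 was the highest. *Os-C* (FBgn0010401, 3R, bases 7978959 to 7979614), an olfactory-specific secreted protein gene, had 16.3, 5.22 and 4.23 CPM in Control GD and no count in any Control KK library. Against a floor of 3 counts in each Control KK library, it was at least 64.8-fold lower than the Control GD mean, which replicate 1 raised. *a5*, which is not on the list, was likewise without counts in Control KK (6.538, 1.72 and 1.38 CPM in Control GD). Against the same floor it was at least 24.2-fold lower than the Control GD mean.

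The odorant-binding protein gene *Obp83a*, expressed around the olfactory hairs of the antenna, had 29.8, 8.84 and 7.37 CPM in Control GD and 0.626, 0.319 and 0.467 CPM in Control KK (-5.0 ± 0.88). Its neighbour *Obp83b* had 16.3, 5.29 and 4 CPM in Control GD and 0.385, 0.365 and 0.311 CPM in Control KK (-4.57). *Obp59a*, *Obp84a*, *a10* and *Obp19a* had log2 fold changes of -5.85, -4.88, -4.93 and -4.13. The genes with smaller differences included *lush*, needed to sense the pheromone cVA (5.86, 2.72 and 2.88 CPM in Control GD, 0.722, 0.821 and 0.973 CPM in Control KK; -2.16), and *Orco*, the co-receptor of most odorant receptors (11.5, 7.68 and 8.15 CPM in Control GD, 3.8, 4.56 and 4.09 CPM in Control KK; -1.13). The members that were not called included the ionotropic receptor genes *Ir25a* (-0.39) and *Ir40a* (-0.01). *Orco* lost its call without Control GD replicate 1 (-0.93), as did *Gr63a*, a carbon dioxide receptor (-1.31), which also lost it without any Control KK library. Without that library 9 of the 18 genes were called and the median was -1.33. Within the whole odorant-binding protein family, 31 genes were tested, 7 were called lower and 1, *Obp99b* of the fat body list, higher. In all, 25.8% of the family was called (background 3.36%). The carboxylesterase-family gene *Jhedup* was called lower (22.6, 12.1 and 9.5 CPM in Control GD, 3.51, 4.33 and 4.98 CPM in Control KK; -1.77), but not without Control GD replicate 1 (-1.33) or without replicate 1, 2 or 3 of Control KK (-1.65, -1.77 and -1.90).

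RNA of fat body proteins and of lipid and sugar metabolism was higher in Control KK. The summed level of the fat body list was 35918, 29815 and 34313 CPM in Control GD and 48403, 51576 and 57737 CPM in Control KK, without overlap. Of its 18 genes tested, 2 were called higher (11.1%, background 1.64%) and none lower. Without the fold-change threshold 8 passed as higher (background 11.8%) and 1 as lower (background 9.12%), and the median of the list was 0.60. The called genes were *fit*, a female-biased satiety peptide gene (170.0, 190.0 and 229.5 CPM in Control KK, 94.6, 81.4 and 81.5 CPM in Control GD; 1.20 ± 0.19), and *Obp99b* (22.3, 14.3 and 13.9 CPM in Control KK, 4.51, 3.65 and 4.71 CPM in Control GD; 1.97 ± 0.24). The yolk protein gene *Yp2* had 9142, 9933 and 11603 CPM in Control KK and 6218, 4726 and 5824 CPM in Control GD (0.87). *Yp1*, *Yp3*, the lipophorin gene *apolpp* and *Glt* had log2 fold changes of 0.67, 0.66, 0.70 and 0.85. These 5 passed the test below the fold-change threshold. The median of the list moved between 0.11 and 0.72 when single control libraries were left out, and was lowest without Control KK replicate 3.

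Of 26 tested genes of lipid and sugar metabolism, 6 were called higher (23.1%, background 1.64%) and none lower, with a median of 0.35. A further 12 passed as higher short of the fold-change threshold, so that 18 passed as higher (background 11.8%). *Lsd-1*, the perilipin that coats lipid droplets (FBgn0039114, 3R, bases 23763857 to 23766662), had 288.1, 274.1 and 297.8 CPM in Control KK and 115.02, 91.3 and 104.8 CPM in Control GD. The groups were far apart relative to their spread, with a log2 fold change of 1.47 ± 0.10 (edgeR quasi-likelihood test, Benjamini-Hochberg adjusted p = 3.74e-09). *AkhR*, the receptor of the fat-mobilizing adipokinetic hormone, had 121.4, 123.6 and 139.7 CPM in Control KK and 59.1, 50.2 and 53 CPM in Control GD (1.25). The sugar-responsive transcription factor gene *sug* had 72.4, 63 and 73.9 CPM in Control KK and 32.9, 25.1 and 31.6 CPM in Control GD (1.23). *mdy*, a diacylglycerol acyltransferase that makes triglyceride, *FASN2*, a fatty acid synthase, and *Pepck2*, a phosphoenolpyruvate carboxykinase, rose by 1.08, 1.27 and 2.29. The brummer lipase gene *bmm*, which breaks triglyceride down, was the single member past the test in the other direction, at 58.5, 54.3 and 60.6 CPM in Control KK and 84.6, 83.8 and 92.4 CPM in Control GD (-0.59). Leaving out single control libraries gave 6 or 7 called genes, all higher. The lysosomal mannosidase gene *LManII* rose from 168.4, 154.9 and 170.3 CPM to 321.8, 347.3 and 359.2 CPM (1.06 ± 0.07). The part of the fat body level in these differences was not tested.

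**Figure D3:**
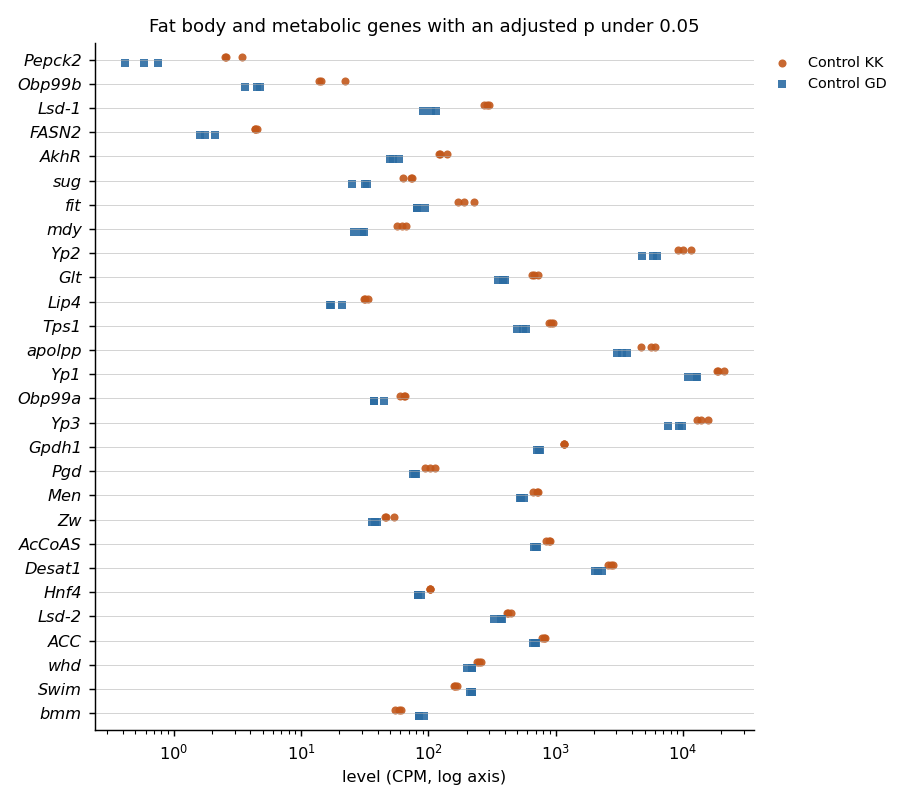
Level in each control library (CPM, log axis) of the members of the fat body and the lipid and sugar metabolism lists with an adjusted p under 0.05, ordered by log2 fold change. Circles are the 3 Control KK libraries and squares the 3 Control GD libraries, and the circles lie to the right for every gene shown except *Swim* and *bmm* at the bottom.

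Of 79 tested cytoplasmic ribosomal protein genes, 29 passed the test as higher in Control KK (background 11.8%) and none as lower, with a median log2 fold change of 0.25, and none reached the fold-change threshold. The background of 11.8% is that of the fit of all 21 libraries, and that of the other fits is not given here. The count depended on the fit. It was 6 without Control GD replicate 2, 9 without Control KK replicate 1 or 3, 12, 13 and 16 without Control GD replicate 1, Control GD replicate 3 and Control KK replicate 2, and 74 with the 6 control libraries alone, while the median stayed between 0.23 and 0.27. Of 23 tested muscle genes, 14 passed as lower (background 9.12%) and 1 as higher, with a median of -0.27, and none was called. Without Control KK replicate 3 the 14 were 8, and without Control GD replicate 2 they were 9.

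No gene was called among 30 neuronal and synaptic genes, 10 nicotinic acetylcholine receptor subunits, 17 glial genes, 34 photoreceptor genes, 22 eye pigment genes and 14 clock genes. The share called over all genes tested was 3.36%, so lists of these sizes could hold none without departing from it. Without the fold-change threshold, 3, 2, 5, 9, 7 and 7 genes of these lists passed, where 20.9% of all genes did. With the 6 control libraries alone, 13 neuronal genes passed as lower and 1 as higher, 5 nicotinic receptor genes as lower, and 9 glial genes as higher and 4 as lower. The 20.9% is that of the fit of all 21 libraries. The share of all genes that passed in the other fits is not given here, so their counts have no background. Without Control GD replicate 1 no neuronal gene passed, without Control KK replicate 1 or 3 a single one did, and without Control GD replicate 2 or Control KK replicate 1 or 2 the glial count was 2. It was 3 without Control GD replicate 3 or Control KK replicate 3, and the eye pigment count was 4 without Control GD replicate 2. The median log2 fold changes of these 6 lists lay between -0.13 and 0.10. The pan-neuronal *elav*, whose enhancer drives the GAL4 transgene, had 216.4, 233.7 and 236.0 CPM in Control KK and 259.9, 256.5 and 233.8 CPM in Control GD, and the groups overlapped. Of 36 neuropeptide genes tested, *Eh* was the gene called (2.78%, background 3.36%). It encodes eclosion hormone, made by a few brain neurons, and had 2.98, 4.42 and 4.4 CPM in Control KK and 0.135, 0.336 and 0.15 CPM in Control GD (4.19 ± 0.80). *CNMa*, which encodes the CNMamide neuropeptide and was named after its values were seen, had 5.87, 6.2 and 4.98 CPM in Control KK and 1.22, 1.19 and 1.46 CPM in Control GD (2.13 ± 0.23).

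Of 76 tested cytochrome P450 genes, 8 were called higher in Control KK and 4 lower (15.8%, background 3.36%). *Cyp6a2*, a P450 known from insecticide-resistant strains (FBgn0000473, 2R, bases 6779749 to 6781491), had 104.7, 104.9 and 103.3 CPM in Control KK and 31, 30.4 and 27.8 CPM in Control GD (1.81 ± 0.06). Within each control the 3 libraries differed by little relative to this gap. *Cyp4d1* had 6.26, 6.38 and 7.51 CPM in Control KK and 2.03, 1.04 and 1.53 CPM in Control GD (2.14), and *Cyp309a2* had 3.42, 3.28 and 3.85 CPM in Control KK and 0.271, 0.447 and 0.561 CPM in Control GD (3.01). *Cyp12d1-d* had 1.68, 2.01 and 1.91 CPM in Control KK and no count in Control GD (at least 15.6-fold higher on the Control KK mean). *Cyp12d1-p* had 1.49, 1.78 and 1.95 CPM in Control KK and 0.135, 0.224 and 0.187 CPM in Control GD. These last genes are near-identical copies at 2R, bases 11117225 to 11125647, so the counting could split reads between them.

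Among 30 tested glutathione S-transferase genes, of which 10% were called (background 3.36%), *GstE9* and *GstE5* of 1 cluster rose by 1.06 and 1.20, and *GstE4* of the same cluster was called lower (8.34, 4.55 and 3.52 CPM in Control GD, 0.866, 1.41 and 2.22 CPM in Control KK; -1.83). *GstE4* lost its call without any 1 of 3 control libraries, Control GD replicate 1 and Control KK replicates 1 and 2. *Mdr50*, a multidrug-resistance ABC transporter gene, had 4.69, 5.22 and 4.75 CPM in Control GD and 0.337, 0.182 and 0.234 CPM in Control KK (-4.26).

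Of 44 tested cuticle protein genes, 3 were called higher and 3 lower (13.6%, background 3.36%). *Cpr64Ac* (FBgn0035512, 3L, bases 4211964 to 4212915) had 19.4, 20.3 and 19.5 CPM in Control GD and 0.433, 0.502 and 0.272 CPM in Control KK (-5.62 ± 0.22), and its libraries were tightly grouped in each control. *Cpr72Ec* fell from 377.1, 364.1 and 366.8 CPM to 156.1, 145.6 and 170.4 CPM (-1.23). *Lcp65Ag2*, *Edg78E* and *Ccp84Ag* rose by 2.11, 1.52 and 1.41. The eggshell genes *Cp7Fb* and *Cp7Fc* were called higher (1.04 and 1.68), but *Cp7Fc* had 3.56, 0.456 and 2.61 CPM in Control KK and 0.586, 0.671 and 0.785 CPM in Control GD, so that Control KK replicate 2 lay below Control GD. Neither was called without Control KK replicate 3, Control GD replicate 1 or Control GD replicate 2, nor was *Cp7Fc* without Control KK replicate 1. Other eggshell genes varied in the same way, with *Cp36* at 7.08, 0.137 and 2.92 CPM in Control KK and at most 0.0451 CPM in Control GD. Of the digestive enzyme list, *mag*, a lipase gene, was called lower on the 2.51 CPM of Control GD replicate 3 alone, the other Control GD libraries having 0 and 0.149 CPM, and was not called without it or without Control KK replicate 3.

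The most one-sided genes had at least 1 CPM in each library of 1 control and fewer than 3 counts in each library of the other. There were 11, of which 6 were detected in Control KK and 5 in Control GD. The long non-coding RNA gene *lncRNA:CR40469* (FBgn0058469, X, bases 122493 to 122706) had 45.6, 51 and 54.7 CPM in Control KK and 0, 0.0746 and 0.0748 CPM in Control GD. The Control GD libraries held 4 counts in all. *CG33263* had 2.74, 2.1 and 1.6 CPM in Control KK and a single count in Control GD. It lies next to *CG14106* on 3L (bases 13423320 to 13425671 for both), which had 19.7, 22.9 and 17.9 CPM in Control KK and 0.135, 0.298 and 0.15 CPM in Control GD (6.63 ± 0.26). *Sdic3* and *Sdic2*, members of a tandem family of sperm dynein chain genes on the X chromosome, had 5.3 to 6.7 and 1.2 to 1.87 CPM in Control KK and 2 and 3 counts in Control GD. They are near-identical copies, and reads could be split among them.

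The genes detected in Control GD alone were *Os-C* and *a5* (above), *PGRP-SC2*, *CG43920* and *asRNA:CR44291*. *CG43920* had 2.3, 5.74 and 11.9 CPM in Control GD and no count in Control KK (at least 50-fold lower than the Control GD mean). *asRNA:CR44291* had 1.49, 1.68 and 1.5 CPM in Control GD and 0, 0.0456 and 0.0778 CPM in Control KK. It is annotated as antisense, and the strand setting of the counting was not given in the sources used here, so reads of its partner gene cannot be told apart. *PGRP-SC2* had 1.17, 1.34 and 2.58 CPM in Control GD and at most 0.0963 CPM in Control KK. Its call was lost without any 1 of 4 control libraries, Control GD replicate 3 or any Control KK library.

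**Figure D4:**
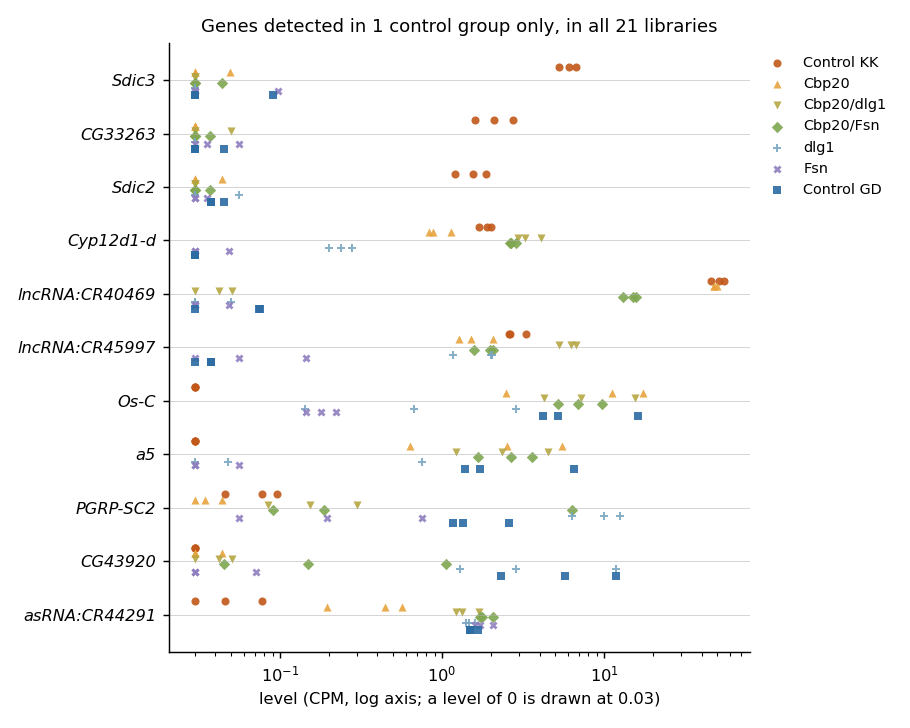
Level of the 11 genes detected in 1 control only, in all 21 libraries (CPM, log axis, a level of 0 drawn at 0.03), with the 6 genes detected in Control KK at the top and the 5 detected in Control GD below. Each symbol is 1 library, and of the 11 genes *lncRNA:CR40469* alone had all *Cbp20* libraries in the range of detection and all *dlg1* and *Fsn* libraries under 3 counts.

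Called genes were 287 of 9735 tested protein-coding genes (2.95%), 53 of 508 non-coding RNA genes (10.4%) and 8 of 52 pseudogenes (15.4%). Among the non-coding genes, *lncRNA:CR45284* (FBgn0266822, 2L, bases 14032006 to 14038306) had 12.5, 13.8 and 13.8 CPM in Control KK and 0.135, 0.0373 and 0.15 CPM in Control GD (6.91 ± 0.33). The hairpin RNA gene *hpRNA:CR33940* had 9.39, 10.1 and 9.61 CPM in Control KK and 1.4, 1.98 and 1.05 CPM in Control GD (2.71 ± 0.21). The shares called on the large chromosome arms were 3.52% on 2L, 3.81% on 2R, 3.42% on 3L, 3.62% on 3R and 2.46% on X, and none of 100 tested genes on chromosome 4 was called.

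Some called genes were neighbours. There were 12 runs of at least 3 called genes with gaps of at most 20 kb, with 42 of the 350 called genes that have a position, and 7 of the runs had all members in 1 direction. *Hsc70-2*, a heat shock cognate gene (FBgn0001217, 3R, bases 13044759 to 13047388), had 18.6, 17.9 and 17.6 CPM in Control KK and 0.0902, 0.261 and 0.486 CPM in Control GD (5.94 ± 0.29). It was the 1 of 18 tested heat shock genes to be called (5.56%, background 3.36%), and its neighbours *CG31157* and *CG7966* were also higher (6.34 and 1.07). On 2L, *CG18095* next to *lncRNA:CR45284* was higher (9.43, 9.26 and 10.9 CPM in Control KK, 0.0451, 0.298 and 0.0374 CPM in Control GD; 6.17), as was *bgm*, an acyl-CoA synthetase gene (1.16), whereas *NimC4* in the same run was lower. *lncRNA:CR45456*, *lncRNA:CR45457*, *CG17005* and *Cks30A*, a subunit of the cell cycle kinase complex, filled bases 9325845 to 9331981 of 2L and were all lower, with log2 fold changes from -1.28 to -1.06. *CG17005* was not called without Control GD replicate 3, nor *lncRNA:CR45456* without Control KK replicate 3. The called neighbours were named after their values were seen.

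The remaining genes with the largest rises were *CG18343* (17.3, 15 and 17.6 CPM in Control KK, 1.98, 1.83 and 2.21 CPM in Control GD; 3.05), *CG16898* (29.6, 30 and 36.9 CPM in Control KK, 7.48, 6.077 and 5.05 CPM in Control GD; 2.39) and *phu* (154.7, 148.5 and 147.2 CPM in Control KK, 43.3, 29.9 and 32.1 CPM in Control GD; 2.1). Their groups did not overlap.

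The *Cbp20* flies carried a KK line, and the *dlg1* and *Fsn* flies carried GD lines. *Cbp20* libraries were therefore set against the mean of the *dlg1* and *Fsn* libraries, 9 libraries that are not in the control comparison. Here the line and the knockdown cannot be told apart. By the same rule 633 genes (6.0%) were called, 2.49% of those tested being higher and 3.5% lower in *Cbp20*. Of the 355 genes called between the controls, 74.6% had the same sign in this comparison, against 46.9% of all genes tested, and 139 were called in the same direction (1.32% of all genes tested). These are 39.2% of the control calls and 22% of the line calls, and 54 of them were higher and 85 lower. Of all genes tested, 406 (3.85%) were called between the lines with the sign of their control difference, whatever its size. Of the control calls, a further 25 (7.04%) were called in the opposite direction, against 227 of all 10558 genes tested. When *Cbp20* was required to differ from *dlg1* alone and from *Fsn* alone, a rule added after the data were seen, 87 genes (24.5% of the control calls) were left, 37 higher and 50 lower. The difference between the 2 comparisons was itself called for 140 of the 355 genes (39.4%, against 5.68% of all genes tested), 91 of the higher and 49 of the lower. The 355 genes were chosen by their control difference, which is part of this test. The larger share therefore cannot be read as a result about them.

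**Figure D5:**
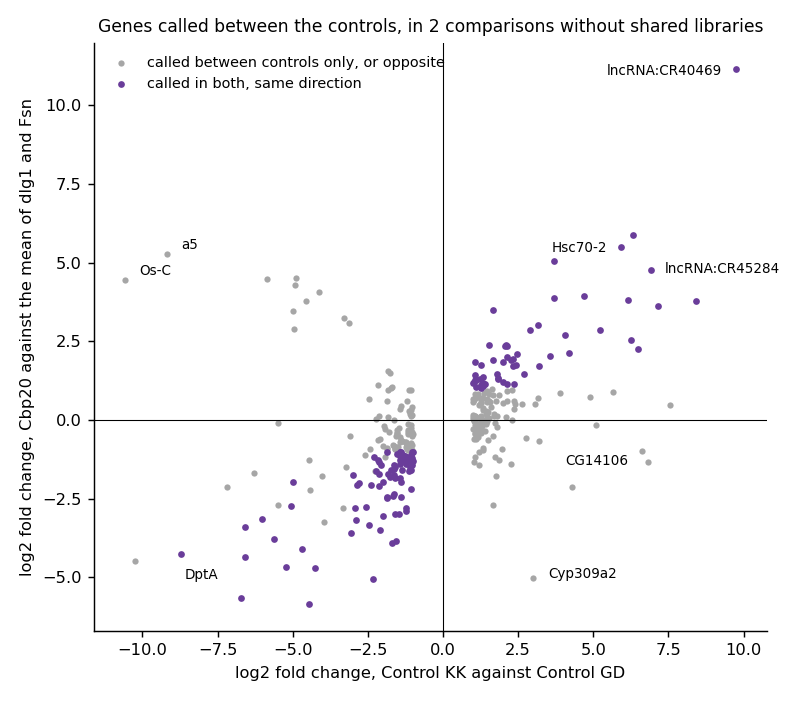
Log2 fold change of the 355 genes called between the controls (horizontal axis) and log2 fold change of the same genes in *Cbp20* against the mean of *dlg1* and *Fsn* (vertical axis). The 139 genes called in both in the same direction are purple and the others grey, and the antennal genes *Os-C* and *a5* lie at the upper left, with opposite signs.

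The clearest repeat was *lncRNA:CR40469*, with mean levels of 48.5 CPM in *Cbp20*, 0.0166 CPM in *dlg1* and 0.0162 CPM in *Fsn*. In the flies that carry lines of both collections it had 14.7 CPM with *Cbp20/Fsn* and 0.031 CPM with *Cbp20/dlg1*. *Hsc70-2* had 11.4 CPM in *Cbp20* against 0.41 and 0.161 CPM in *dlg1* and *Fsn*, and *CG31157* had 5.25 CPM against 0.118 and 0.0519 CPM. *Cyp6a2* had 96.1 CPM in *Cbp20* and 44.4 and 27.6 CPM in *dlg1* and *Fsn*. *Cpr64Ac* had 0.828 CPM in *Cbp20* and 5.97 and 20.6 CPM in *dlg1* and *Fsn*. *Osi2*, of the Osiris family, showed the same order in both comparisons (19.8 ± 1.64 CPM in Control KK and 83.5 ± 2.69 CPM in Control GD, SD, n = 3; 7.28 CPM in *Cbp20*, 70 in *dlg1* and 95.8 in *Fsn*). *CG3699* had 2.8 to 3.03 CPM in Control KK and 13.6 to 15.6 CPM in Control GD, with 0.992 CPM in *Cbp20*, 20.3 in *dlg1* and 48 in *Fsn*. For each of these genes the *Cbp20* mean lay on the side of Control KK. Both GD-line means were nearer in CPM to that of Control GD, except that of *Cpr64Ac* in *dlg1*. In CPM it was nearer to the mean of 0.402 in Control KK than to that of 19.7 in Control GD. In log2 it was nearer to Control GD. The double knockdowns, which carry the KK line as well, did not all follow *Cbp20*. With *Cbp20/dlg1* and *Cbp20/Fsn*, the means were 0.484 and 0.578 CPM for *Hsc70-2*, 0.132 and 0.0864 CPM for *CG31157*, 63.9 and 58 CPM for *Osi2*, and 31.2 and 21.8 CPM for *CG3699*, on the side of Control GD. Those of *Cyp6a2*, 109.2 and 94.9 CPM, were on the side of Control KK, and those of *Cpr64Ac*, 2.87 and 7.69 CPM, lay between the controls.

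The antimicrobial peptides did not follow the collection in every group. Their summed level had medians of 828.3 CPM in *dlg1* but 19.2 CPM in *Fsn*, which also carries a GD line, and of 32.6 CPM in *Cbp20*. For *DptA* the means were 213.6 CPM in *dlg1*, 2.23 CPM in *Fsn* and 1.19 CPM in *Cbp20*. Of the 13 genes 6 were called in both comparisons. *Mtk* was the peptide gene that passed the test against *dlg1* alone and against *Fsn* alone, with log2 fold changes of -4.28 and -2.05. The recognition genes *PGRP-SB1* (9.2 CPM in *Cbp20*, 52 in *dlg1*, 30 in *Fsn*) and *GNBP-like3* (5.9 CPM in *Cbp20*, 29 in *dlg1*, 35 in *Fsn*) also passed against both.

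The antennal list went the other way. Its summed level had medians of 111.8 CPM in *Cbp20*, 50.4 CPM in *dlg1* and 55.9 CPM in *Fsn*. It varied from 63.7 to 168.7 CPM in *Cbp20*, which overlapped the 42.4 to 65.8 CPM of *dlg1* but not the 51.3 to 58.6 CPM of *Fsn*. None of the 11 control calls of the list was called in the same direction. *Antdh*, outside the list, was called higher in both comparisons (means of 44.1 CPM in *Cbp20*, 11.3 in *dlg1* and 15.3 in *Fsn*). *Obp83a* had 14.3 CPM in *Cbp20* and 2.81 and 0.612 CPM in *dlg1* and *Fsn*, a log2 fold change of 3.46 where the controls had -5.0. The difference between these values was -8.46 ± 1.07 (edgeR quasi-likelihood test, Benjamini-Hochberg adjusted p = 7.6e-06). The lipid and sugar list did not recur either, and none of its 6 genes was called in both. *Lsd-1* had 169.4 CPM in *Cbp20*, 126.2 in *dlg1* and 164.8 in *Fsn*, and the median of the list was -0.14. The fat body list had a median of -0.50, and its summed level had a median of 22588 CPM in *Cbp20*, 34821 in *dlg1* and 68874 in *Fsn*.

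*CG14106* had 0.0798 CPM in *Cbp20*, 0.138 in *dlg1* and 0.213 in *Fsn*. *Sdic3*, *Sdic2* and *CG33263* had under 3 counts in each library of the 5 knockdown groups. These genes were therefore detected in Control KK alone of the 7 groups. *Cyp309a2* was reversed, with 0.127 CPM in *Cbp20* and 4.16 and 4.35 CPM in *dlg1* and *Fsn* (-5.03 in the lines, 3.01 in the controls).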

How the data were processed

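RNA-seq (stranded poly(A) libraries, single-end) was made from pooled heads. According to the labels and the study's methods, the authors trimmed reads with Trimmomatic 0.36, aligned them with TopHat2 2.1.1 to the fly genome and counted them per gene with HTSeq 0.6.1. The strand setting of the counting was not given in the sources used here. The deposited values were raw counts per gene and sequencing batch, which were summed per library after the HTSeq summary entries were dropped. Gene names and positions (BDGP6.54) were matched by identifier. All 21 libraries were fitted together with edgeR 4.0.16 (R 4.3.3; TMM normalization, filterByExpr, quasi-likelihood F test) with 1 coefficient for each of 7 groups. Adjusted p-values are Benjamini-Hochberg values over all genes tested, and called genes had an adjusted p under 0.05 and an absolute log2 fold change over 1. SEs are the fold change divided by the root of F. Levels are CPM, which are not scaled by gene length. The test was first tested on simulated data. DESeq2 1.42.0, other normalizations, filters, single sequencing batches and left-out libraries were alternatives.

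Genes named are the 8 largest rises and falls at 5 CPM or more on average without overlap, the 3 largest changes in each gene list with at least 3 called members, the 6 largest repeats and the 6 largest contrasts with the knockdown lines, the genes detected in 1 control only, and label checks. Other list members were named after their values were seen. Listed symbols that matched no name were left out of the lists. The members and gene lists were chosen with earlier results of these data known. The replicates are described as biological, and p-values measure the spread between these pools.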

Additional observations from a re-analysis of the deposited data

Results flagged for a closer look

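Of the 60 genes named by rule, 53 were called between the controls. For 30 of these the fold change between the controls also differed from that of the same gene in *Cbp20* against *dlg1* and *Fsn*, by the test of the difference itself in edgeR. The 53 genes were called on the control difference, which is part of this test, and some were named by the size of the contrast. The count therefore depends on that choice. The values here are differences of log2 fold changes, controls minus knockdown lines, 19 above 0 and 11 below. Knockdown and line cannot be told apart in the second comparison.

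The antennal genes had the lowest values, because they were lower in Control KK and higher in *Cbp20*. They were -15.04 for *Os-C*, -14.44 for *a5*, -10.34 for *Obp59a*, -9.39 for *Obp84a* and -8.46 for *Obp83a*. *Os-C* and *a5* had no count in Control KK, so the size of their fitted values depends on the model. The antimicrobial peptide genes *Dro* and *AttB* had -4.60 and -3.18, and *Jhedup*, *GstE4*, *asRNA:CR44291* and *Cpr64Ac* had -3.25, -3.39, -3.0 and -1.85.

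Detoxification genes were among those above 0, with 8.04 for *Cyp309a2*, 4.65 for *Cyp12d1-d*, 3.89 for *Cyp12d1-p*, 1.55 for *GstE5* and 1.12 for *GstE9*. Genes of metabolism followed, with 2.30 for *Pepck2*, 1.28 for *FASN2*, 1.24 for *Lsd-1* and 1.08 for *LManII*. Genes that, of the controls, were detected mainly in Control KK had 7.62 (*CG14106*), 5.25 (*Sdic2*), 4.25 (*lncRNA:CR45997*) and 2.14 (*lncRNA:CR45284*). In *Cbp20*, *lncRNA:CR45997* had at least 1.27 CPM in each library and *lncRNA:CR45284* a mean of 17.2 CPM. The other genes above 0 were *lcs* (4.37), *CG18343* (2.56), *phu* (2.0), *CG16898* (1.88), *hpRNA:CR33940* (1.25) and *Lcp65Ag2* (1.19). *lcs* had a mean of 196.4 CPM in *dlg1* and at most 10 CPM in any control library. It was not called between the controls without Control GD replicate 2 or Control KK replicate 1.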

How the results depend on the processing

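The 355 calls between the controls numbered 353 with RLE normalization, 347 with DESeq2, 351 with the newer edgeR estimation, 377 without the low-count filter and 359 with the 6 control libraries alone. DESeq2 shared 336 of them. Leaving out single libraries gave 316 to 343. Sequencing batches alone are shallower and gave 229, 224 and 293 in the first, the second and the third, and dropping the fold-change threshold gave 2207. The line comparison (633) gave 403 in the second batch, 4649 without the fold-change threshold and 613 to 690 with single libraries left out. The test of the difference (600) gave 3361 without that threshold and 525 to 660 with single libraries left out. The 139 genes called in both became 84, 78 and 91 in those batches, 712 without the threshold, 87 with *dlg1* and *Fsn* each required, and 115 to 152 with single libraries left out, the lowest without Control GD replicate 3. The second and the third batch and the stricter overlap were added after the data were seen. For genes named by rule, 848 of 888 alternative values stayed on their side of the threshold, 40 did not and none reversed.

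With the replicate number as a block, 354 genes were called between the controls, 626 between the lines, 592 in the difference and 140 in both. The numbers did not pair the samples, as same-numbered controls had correlations of -0.169, 0.107 and -0.157. Those of the other pairs of controls ran from -0.0587 to 0.212, the highest for Control KK replicate 1 with Control GD replicate 3. Control KK replicate 3 with Control GD replicate 1 had 0.206.

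With 3 libraries in each control, a level under 0.112 to 0.139 CPM is not resolved. Pooled heads cannot separate cell number from RNA per cell.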
